A study of Mus musculus with 2 samples.

Results

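The cytosolic ribosomal protein genes are the protein-coding genes whose symbol is Rpl or Rps followed by a number and, for some, a letter suffix, together with Rpsa and the acidic proteins Rplp0, Rplp1 and Rplp2. The GENCODE M21 annotation of mouse build GRCm38/mm10 holds 84 such genes, and 82 of them had a read, of 15371 annotated genes with a read in the series. The rule used symbols and gene type alone, and no measured value. Long-read RNA sequencing was done on gastrocnemius, the large calf muscle, of 2 female B6CASTF1/J mice, first-generation hybrids of the B6 and Cast strains, aged 2 months. The molecule was total RNA, each library started from 2 µg of it, and the mice came from The Jackson Laboratory. The sample descriptions number the animals 3 (replicate 1) and 4 (replicate 2). Their donor entry is the same for both, so only those numbers say that the mice were different. There was 1 group, with no treatment and no control. Every test below therefore compares the reads of these 2 libraries, and neither animals nor conditions.

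The cytosolic ribosome is built from a small subunit, which reads the messenger RNA, and a large subunit, which joins amino acids. Each ribosome holds a single copy of most of its proteins, and their messenger RNAs typically begin with a C and a run of pyrimidines, the terminal oligopyrimidine element, through which translation follows growth signals. Most members have many processed pseudogenes, which are intronless copies of the messenger RNA in the genome. In heart and skeletal muscle the paralogue Rpl3l takes part of the place of Rpl3, a protein near the centre where peptide bonds form. Rps24, a small subunit protein, is spliced near the end of its coding sequence through very short exons that set its last amino acids.

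The starts of 64 of the 84 members were found in the RefSeq promoter table (GRCm38.p6), in 76 promoters. A C followed by at least 4 bases that are each C or T, read on the strand of the gene from the annotated start base, stood at 13 of these 76 promoters (17.1%), against 823 of all 32851 promoters of the same length (2.51%). When the run could begin up to 5 bases to either side of the start, 31 member promoters (40.8%) and 6027 of all promoters (18.3%) held it. The following 30 bases span 15 before the start to the 15 from it on, with the run in capitals. They are shown because the first 6 carry the run, and Rplp0 and Rpl3l, both abundant here, do not carry it at the annotated start. The stretches lie at chr2:39005117-39005146 (minus strand) for Rpl35, chr11:114668565-114668594 (plus) for Rpl38, chr7:141447636-141447665 (plus) for Rplp2 and chr4:86857353-86857382 (minus) for Rps6. The others lie at chr17:27635230-27635259 (minus) for Rps10, chr7:4792950-4792979 (plus) for Rpl28, chr5:115559452-115559481 (plus) for Rplp0 and chr17:24727811-24727840 (plus) for Rpl3l.
Rpl35: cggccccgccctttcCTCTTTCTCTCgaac
Rpl38: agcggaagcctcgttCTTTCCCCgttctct
Rplp2: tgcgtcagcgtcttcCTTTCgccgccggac
Rps6: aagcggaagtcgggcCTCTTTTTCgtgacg
Rps10: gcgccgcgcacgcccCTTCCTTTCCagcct
Rpl28: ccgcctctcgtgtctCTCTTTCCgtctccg
Rplp0: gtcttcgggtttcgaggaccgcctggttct
Rpl3l: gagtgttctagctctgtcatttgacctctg

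Library totals were 1349298 reads for replicate 1 and 1359923 for replicate 2, on 85714 and 92049 transcript models, each model being 1 exon structure. The 6 skeletal muscle markers (such as Acta1, Ckm and Myh4) held 380866 and 381795 reads, all 6 of them in both libraries, and all 6 were called between the libraries, 4 higher and 2 lower in replicate 2. All 5 slow fibre genes (Myh7, Tnnt1, Tnnc1, Tpm3 and Atp2a2) were called higher in replicate 2, with 1389 and 11064 reads summed. The 7 adipocyte markers summed to 2531 and 1214 reads, with 6 called lower in replicate 2, and the 5 myelin markers to 840 and 120, with 4 called lower. Of 4 smooth muscle markers (210 and 95 reads) 3 were called lower, and of 4 endothelial markers (222 and 153) 1 was. The 5 fibroblast markers held 2551 and 2521 reads, with 1 called higher and 1 lower. The 5 macrophage markers held 101 and 69, with 1 called lower of 2 tested. The 4 red blood cell markers held 127 and 156, with none called of 3 tested. Satellite cell markers, with 4 and 1 reads, had too few to test. Spike-in reads were 3.64% and 1.49% of the libraries. The part of these differences in the values below was not tested, and fewer cells of a type cannot be told apart from less RNA per cell.

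Members held 13719 reads in replicate 1 and 14471 in replicate 2. These were 1.02% (95% Wilson interval 1.00 to 1.03) and 1.06% (1.05 to 1.08) of all reads, or 1.04% ± 0.0335 (SD, n = 2). All intervals here and the limits drawn from counts of 0 cover counting error only. The large subunit, with 52 genes of which 50 had a read, held 9456 and 9970 reads. The 32 genes of the small subunit, all with a read, held 4263 and 4501. The large subunit thus took 68.9% of member reads in both libraries, and each subunit moved by about the same ratio between libraries, 1.05-fold (interval 1.02 to 1.08) and 1.05-fold (1.00 to 1.09). The level of a gene is given in CPM, its reads scaled to a library total of 1000000. Each long read was counted once whatever its length, so levels were not divided by length. The length of a gene's most abundant annotated transcript is given where genes are set against each other. Whether reads follow the number of molecules alike at every length was not tested.

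The 82 members with reads had a median level of 101 CPM, and the lowest stood at 4.06. The lower and upper quartiles were 59.1 and 141 CPM, a 2.39-fold range. Across the 82 genes the log2 levels of the 2 libraries correlated with a Pearson r of 0.97 and a Spearman rho of 0.94, over genes that share the same libraries. The large subunit had a median of 98.9 CPM and the small subunit one of 105 CPM, while the highest small subunit gene, Rps14, reached 251 CPM. The most abundant members were of the large subunit. Among them Rplp0, the base of the stalk that recruits translation factors, had 610 and 511 CPM (1358 bases). Rpl41, which encodes the smallest ribosomal protein, stood at 366 and 431 (582 bases). Rpl4, which lines the exit tunnel, had 400 and 395 (1538 bases). Rpl35, which sits at the tunnel exit, had 323 and 451 (946 bases), and Rpl3l had 352 and 300 (1375 bases). The order of Rpl41, Rpl4, Rpl35 and Rpl3l was not the same in the 2 libraries, whereas Rplp0 was above these 4 in both.

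**Figure D1:**
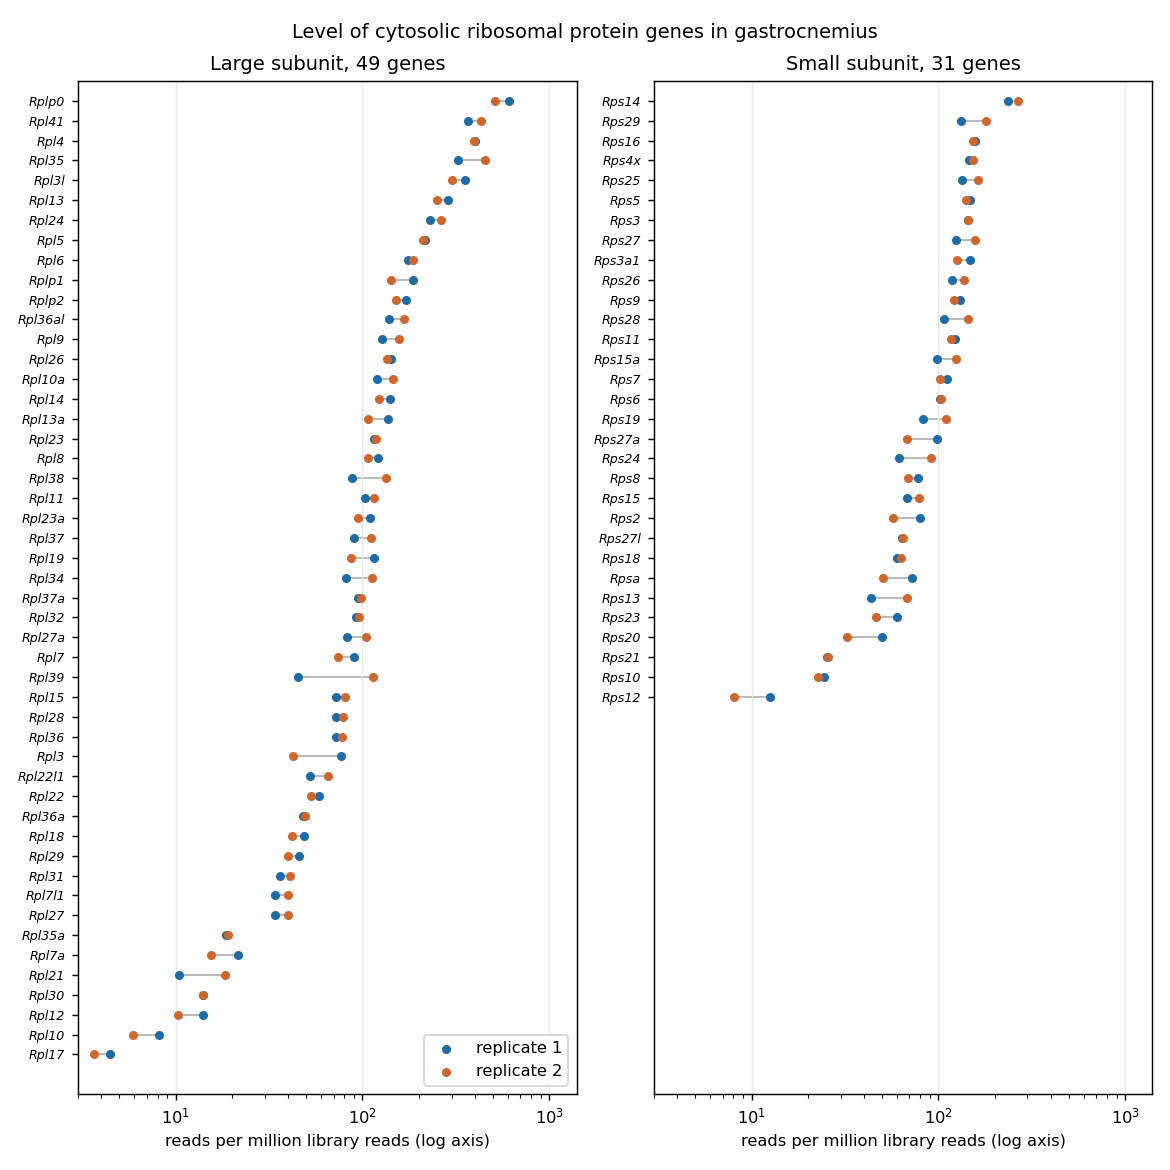
Level of 80 members with a read, in CPM on a log axis, for the large subunit (left, 49 genes) and the small subunit (right, 31 genes); each gene has a point per library joined by a line. Rplp0 stands at 610 and 511, Rpl17 at 4.45 and 3.68, and Rpl39 has the widest gap between the libraries.

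The stalk proteins Rplp1 and Rplp2, which form the dimers that bind Rplp0, had 253 and 194 reads and 231 and 206 reads. Rps3, at the entry of the messenger RNA, had 195 reads in each library. Rps6, the phosphorylation target of S6 kinase, had 138 and 141 reads, and Rpsa, the laminin receptor precursor, had 97 and 69. Among the proteins that join the 5S ribosomal RNA before assembly, Rpl5 had 291 and 288 reads and Rpl11 had 139 and 156. Rps3, Rps6 and Rpl5 therefore differed between libraries by less than their counting error.

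The 6 lowest members were Rpl17 with 6 and 5 reads, Rpl10 with 11 and 8, Rps12 with 17 and 11, Rpl12 with 19 and 14, Rpl30 with 19 in each library and Rpl21 with 14 and 25. Rpl10 encodes a protein that is added last to the large subunit, and Rpl12 one at the base of the stalk. Some of these genes had more reads on copies of their sequence. Pseudogenes with at least 90% identity to a member over at least 50% of their length held 2638 and 2828 further reads on 160 loci, 16.1% and 16.3% of the sum of member and copy reads. Of these copy reads, 99.8% in each library had a single exon. For Rpl21, 14 and 25 reads stood on the gene and 255 and 249 on its 7 copies. For Rpl17, 6 and 5 reads stood on the gene and 69 and 57 on its 6 copies, and for Rpl30, 19 and 19 on the gene and 49 and 35 on 1 copy. In all, 68 members had a copy with reads, and 13 had more reads on copies than on the gene. Rps6, named above with 138 and 141 reads, was among the 13, with 168 and 186 reads on 4 copies. Rpl5, with 291 and 288 reads, had 208 and 211 on 2 copies. With copy reads added to their parents, the quartile range narrowed from 2.39-fold to 1.93-fold, and the lowest level was 8.49 CPM. Whether a copy's reads came from the copy or from its parent was not tested. No read in either library fell on 2 members, Rpl10l (chr12:66283379-66284401) and Rpl39l (chr16:10170226-10174911), paralogues known from testis. The limit of 3 reads is 27.3% and 37.5% of the 11 and 8 reads of Rpl10, and 4.92% and 1.94% of the 61 and 155 reads of Rpl39.

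The muscle paralogue held most reads of its pair. Rpl3l had 475 reads in replicate 1 and 408 in replicate 2, and Rpl3 had 103 and 58. Rpl3l thus made up 82.2% (interval 78.9 to 85.1) and 87.6% (84.2 to 90.2) of the reads of the pair, a mean of 84.9% ± 3.80 (SD, n = 2), and outnumbered Rpl3 by 4.61-fold and 7.03-fold. The libraries' intervals overlapped by less than 1 percentage point. The dominant transcripts are close in length, 1375 bases for Rpl3l-202 (chr17:24727820-24736143, plus strand) and 1351 for Rpl3-201, and both have 10 exons. Their coding sequences, of 1224 and 1212 bases, matched at 922 of 1193 aligned bases (77.3%), so that a full read tells them apart. The first 60 coding bases are given with the 13 that differ in capitals, from the gene at chr15:80077791-80083337 (minus strand) and the one at chr17:24727696-24736143 (plus strand).
Rpl3: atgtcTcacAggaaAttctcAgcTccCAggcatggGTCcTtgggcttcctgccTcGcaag
Rpl3l: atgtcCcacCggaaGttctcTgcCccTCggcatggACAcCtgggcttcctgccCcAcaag

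Pseudogene copies bear on this share. Adding the 54 and 41 reads of the 3 Rpl3 copies to Rpl3 gave 75.2% and 80.5% for Rpl3l, which had no copy with reads. Counting annotated transcripts alone gave 76.2% and 81.8%, since more of the reads of Rpl3l than of Rpl3 were on other structures. Rpl3l-202 held 314 and 233 reads (66.1% and 57.1%). A model that kept the first intron, of 430 bases at chr17:24727887-24728316, held 99 and 108. This intron begins at the base after the annotated start codon, which ends at position 24727886. It was kept in 99 of 414 informative reads of replicate 1 (23.9%, interval 20.1 to 28.2) and in 108 of 343 of replicate 2 (31.5%, 26.8 to 36.6), a larger count of unspliced reads than at any other intron of the members. A model from another first exon, starting at position 24728174, held 18 and 9 reads. The shift in the share of Rpl3l-202 did not pass the test (Fisher's exact test, Benjamini-Hochberg adjusted p = 0.215).

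In 4 other pairs both paralogues had reads, and each lay nearer to equal use than Rpl3 and Rpl3l in these counts. Rpl22l1 had 71 and 89 reads and Rpl22, a protein also known as a binder of viral RNA, had 79 and 72, so that Rpl22l1 was 47.3% (39.5 to 55.3) and 55.3% (47.6 to 62.7), and 54.0% and 61.0% on annotated transcripts alone. Rpl36al was the larger member of its pair, with 188 and 227 reads against 65 and 67 for Rpl36a, 74.3% and 77.2%. Rpl7l1, a nucleolar relative of Rpl7, had 46 and 54 reads against 121 and 101, 27.5% and 34.8%, and 17.04% and 27.97% on annotated transcripts alone. Rps27l, known as a p53 target, had 86 and 88 reads against 167 and 213 for Rps27, 34.0% and 29.2%. In each of these 4 pairs the 2 libraries' intervals overlapped, and for Rpl22 and Rpl22l1 the interval of each library included equal use.

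**Figure D2:**
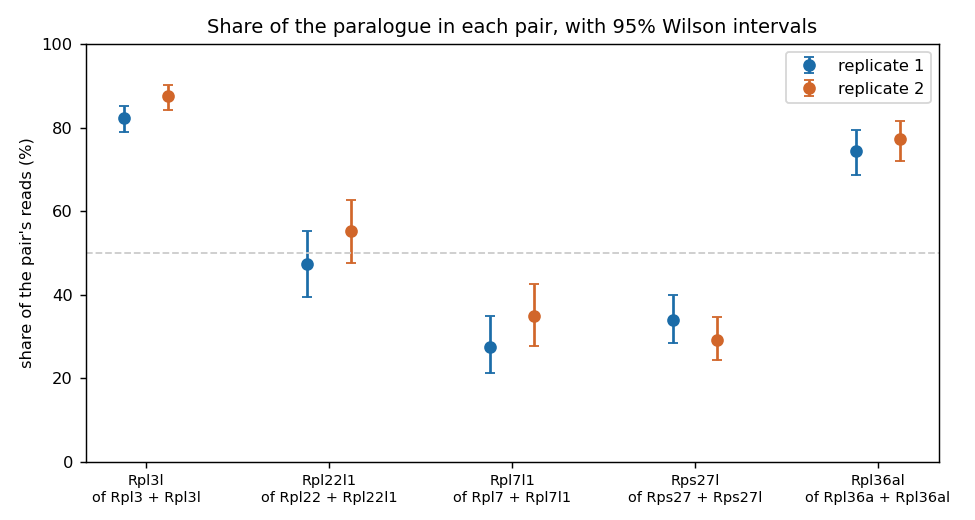
Share of the paralogue in the reads of each of 5 pairs, in percent, with 95% Wilson intervals, for replicate 1 (blue) and replicate 2 (orange). Rpl3l (82.2% and 87.6%) and Rpl36al (74.3% and 77.2%) lie above the dashed line at equal use, Rpl7l1 and Rps27l below it, and Rpl22l1 on it.

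Rps24 (chr14:24487125-24495858, plus strand) was the member least described by the annotation. Of its 83 and 124 reads, 3 and 2 were on annotated transcripts. The annotation has an 18-base exon at chr14:24494052-24494069, present in Rps24-205 with the annotated stop codon inside it, and a 20-base exon at chr14:24495430-24495449. Transcript Rps24-201 is annotated to end 3 bases into the latter. Most reads instead carried a form of the first of these exons that ran on for 18 bases, to position 24494087, to a length of 36. Its pieces are shown because the reads turn on them. Capitals mark the annotated stop codon in the 18-base exon and, in the extension (printed with the 2 bases after it, chr14:24494070-24494089), the GT after each of the 2 exon ends. The 20-base exon is in lower case throughout. Its first 3 bases are the annotated stop codon of Rps24-201, Rps24-202 and Rps24-207.
18-base exon: aaaTGAaatacctagcag
extension: GTactgccattgggcacgGT
20-base exon: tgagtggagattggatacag

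The 36-base form was in 73 of 83 informative reads of replicate 1 (88.0%, interval 79.2 to 93.3) and in 116 of 122 of replicate 2 (95.1%, 89.7 to 97.7). The 18-base form was in 6 (7.23%) and 5 (4.10%) reads, and neither form was in 4 and 1. No read carried the 20-base exon, which allows a share of up to 3.61% and 2.46%. The 2 most abundant models were a 6-exon model with the 36-base form, with 42 and 59 reads, and a 5-exon model with the same form that starts further on, at position 24491750, with 29 and 46. Very short exons were rarely found anywhere in these tables. Of 53 annotated internal exons of at most 9 bases in coding genes with at least 40 informative reads, 1 was in a read (1.89%), and of 113 of 10 to 20 bases, 30 were (26.5%). The share was 87.7% of 332 exons of 21 to 30 bases and 97.8% of 42342 exons over 50 bases. The count of 0 for the 20-base exon stands beside these shares, and whether reads that hold it were placed on the extension was not tested.

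**Figure D3:**
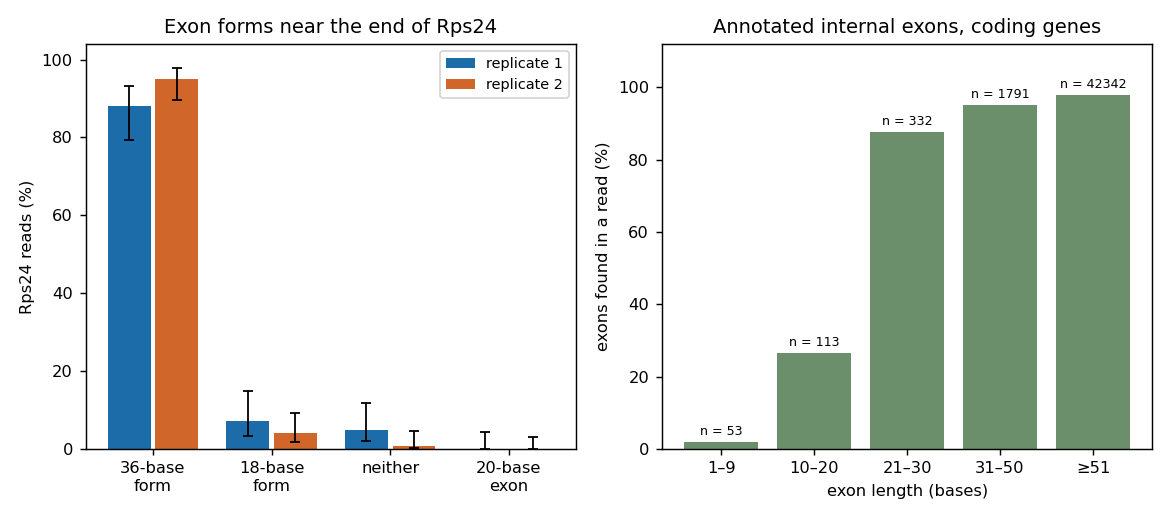
Left, share of informative Rps24 reads in percent with each exon form, with 95% Wilson intervals, per library. Right, share of annotated internal exons of coding genes found in at least 1 read, by exon length in bases. The 36-base form reaches 88.0% and 95.1%, and exons of at most 20 bases were found far less often than longer ones.

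Few internal exons of the members were skipped. The exon test set reads that hold an exon with exactly its ends against reads whose intron spans it, so that for Rps24 a read with the other form counted on neither side. Of 270 internal exons in 75 members with at least 20 such reads in each library, 258 had a pooled inclusion over 95% and 12 under 5%. None lay between by this count, so the test, which covered 1992 alternative exons of the series (13 called, 0.653%), included no member. The 36-base form of Rps24 stood at 73 held against 4 spanned and 116 against 1, and the 18-base form, at 6 against 4 and 5 against 1, had too few reads. The dominant transcript took a median of 90.03% of a gene's reads over the 76 members tested, against 77.0% over all 4881 genes. It was annotated in 74 of the 76, and Rps24 was an exception. Of 332 introns of 76 members, 8 (2.41%) were kept in at least 10% of reads in both libraries, against 335 of 41579 (0.806%) in other coding genes. The highest were an intron of 214 bases in Rpl31 (15 of 27 and 15 of 36 reads), one of 95 bases in Rps27a, which encodes a fusion of ubiquitin and a ribosomal protein (32 of 125 and 22 of 89), and the first intron of Rpl3l. Others were in Rpl27, Rps21, Rps2 and Rpl28, with a highest share of 29.6% for Rps21 in replicate 2 (8 of 27 reads). The kept counts of Rpl31 and Rps27a equal the reads of annotated transcripts, Rpl31-203 (15 and 15) and Rps27a-201 (32 and 22). A kept intron can thus belong to an annotated form. The shares of introns kept in members and other coding genes were not matched for intron length or depth.

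Members were better described by annotated transcripts than other coding genes, a comparison not matched for length. Among genes with at least 100 reads, the most abundant annotated transcript had a median of 810.5 bases in members and 2515 in other coding genes. The part of length in the difference was not tested. Annotated transcripts held 87.0% (86.5 to 87.6) and 83.3% (82.7 to 83.9) of member reads, against 65.4% and 64.9% for other coding genes. Per gene with at least 100 reads summed, the median was 96.3% over 72 members and 85.5% over 2849 other genes. Structures with a junction outside the annotation made up 1.14% and 1.22% of member reads, against 18.9% and 18.3%. Rps27 and Rpl36al had every read on annotated transcripts, and Rpl35 and Rpl23a had 99.8% and 99.6% pooled. Low pooled shares were those of Rps24 (2.42%), Rpl39 (51.9%), Rpl7l1 (56.0%) and Rpl3l (62.6%). Single-exon reads of members were 0.751% in replicate 1 and 2.09% in replicate 2, against 3.76% and 4.73% in other coding genes.

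**Figure D4:**
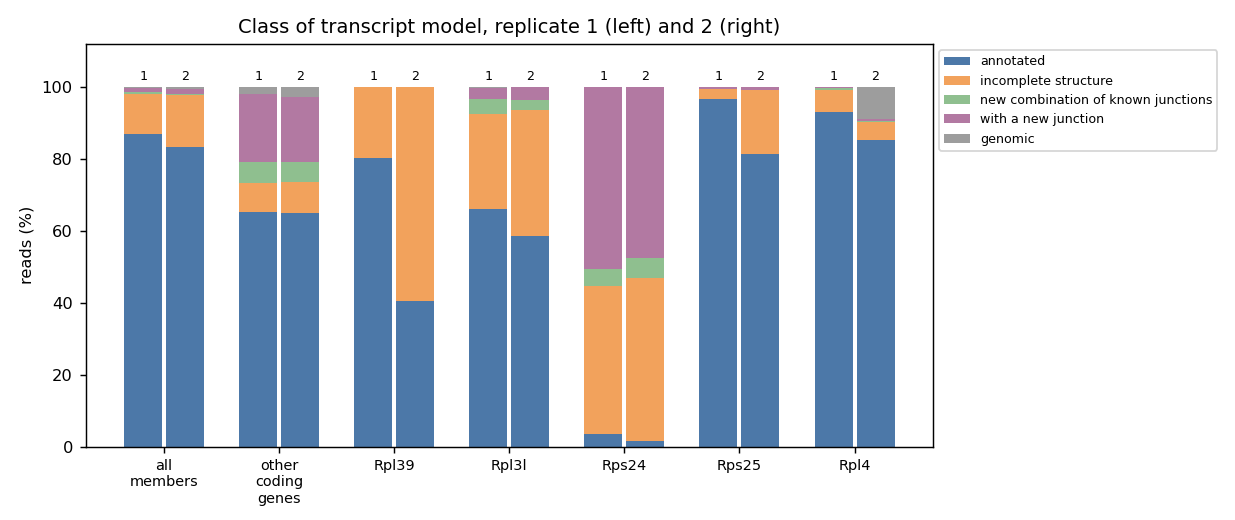
Share of reads in percent by class of transcript model, as the deposited tables give it (incomplete structures have introns that are a part of those of a longer model), for all members, other coding genes and 5 members, with replicate 1 left and replicate 2 right in each pair of bars. Annotated transcripts hold 87.0% and 83.3% of member reads, while Rps24 has 3.61% and 1.61% on annotated transcripts.

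Dominant transcripts of 5 members (6.58%) differed between the libraries, 1 higher and 4 lower in replicate 2. Over all 4881 genes 83 were called (1.70%), 36 higher (0.738%) and 47 lower (0.963%). These shares were not matched for read depth. When the minimum per library was raised to 50 reads, 5 of 68 members were called, against 78 of all 2630 genes (2.97%). Rpl39-201, of the small tunnel protein Rpl39, had 49 of 61 reads (80.3%) and 63 of 155 (40.6%), with an adjusted p of 2.44e-05 by Fisher's exact test with Benjamini-Hochberg adjustment. The rest, 12 and 92 reads, had a single exon. Rps25-201 had 174 of 180 (96.7%) and 181 of 222 (81.5%), and a 3-exon incomplete model had 5 and 38 reads. Rps25 encodes a small subunit protein known for its part in initiation at internal entry sites. Rpl4-201 had 497 of 540 (92.0%) and 452 of 537 (84.2%), with single-exon models at 4 and 47 reads, and Rpl13a-201 had 177 of 185 (95.7%) and 122 of 146 (83.6%). In these 4 genes the annotated transcript had the lower share in replicate 2, and in the first 3 a shorter model made up most of the difference. Rpl34-202 had 76 of 110 (69.1%) and 133 of 153 (86.9%), while Rpl34-201, another annotated form, had 23 (20.9%) and 15 (9.80%). When single-exon models were left out, only Rps25 was called of 74 members tested, against 36 of all 4536 genes (0.794%). Rpl34 then kept its difference of 17.8 percentage points (adjusted p = 0.0677, Fisher's exact test) and Rpl13a had one of -11.5 (adjusted p = 0.0584, Fisher's exact test). Rpl4 had one of -0.48, and Rpl39 was no longer among those tested.

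Between libraries the level of 7 of the 82 members tested differed (8.54%), 5 higher and 2 lower in replicate 2, by Fisher's exact test at a Benjamini-Hochberg adjusted threshold of 0.05. Over all 9341 genes tested, 730 were called (7.82%), 397 higher (4.25%) and 333 lower (3.56%), so the members' share was near the background. The median log2 ratio, of CPM plus a pseudocount of 1, was 0.03 over members and -0.01 over all genes, and the median absolute log2 ratio of genes with at least 100 reads was 0.22 over 72 members and 0.23 over 2805 other coding genes. Rpl39 had 61 and 155 reads, 2.52-fold higher in replicate 2 (interval 1.88 to 3.39, adjusted p = 1.08e-08, Fisher's exact test). On annotated transcripts alone it was 1.33-fold higher with an adjusted p of 0.529. Rpl35 had 436 and 613 reads, 1.39-fold higher (1.23 to 1.58, adjusted p = 5.47e-06, Fisher's exact test). Rpl38, a protein that acts on the translation of Hox messages, had 118 and 181, 1.52-fold higher (1.21 to 1.92, adjusted p = 0.00858, Fisher's exact test). Rps29 had 179 and 246, 1.36-fold higher (1.13 to 1.65, adjusted p = 0.0260, Fisher's exact test). In both libraries of Rpl35, nearly every read was on annotated transcripts.

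Rpl3 and Rplp0 were lower in replicate 2. Rpl3 had 103 and 58 reads, 0.559-fold (0.406 to 0.770, adjusted p = 0.00785, Fisher's exact test), and Rpl3l, with 475 and 408, was not called (0.852-fold, adjusted p = 0.152). Rplp0 had 823 and 695, 0.838-fold (0.757 to 0.927, adjusted p = 0.0124, Fisher's exact test), and 0.860-fold with an adjusted p of 0.0679 on annotated transcripts alone. The members just outside the threshold were Rplp1 (0.761-fold, adjusted p = 0.0552), Rps24 (1.48-fold, adjusted p = 0.0636) and Rps27a (0.692-fold, adjusted p = 0.0801), by the same test. With an assumed spread between animals (edgeR's exact test with a set dispersion of 0.01), only Rpl39 was called, and 173 of all 9341 genes were (1.85%).

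**Figure D5:**
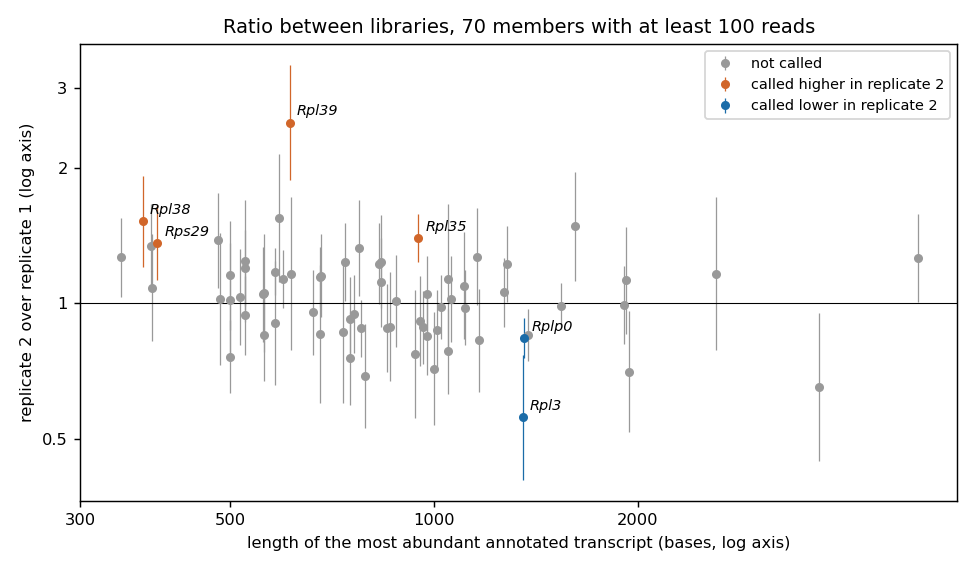
Ratio of replicate 2 to replicate 1 in CPM (log axis) against the length in bases of the most abundant annotated transcript (log axis), for 70 members with at least 100 reads, with Wilson intervals of the read split; the 6 of them that were called are named. Rpl39 is highest at 2.52-fold and Rpl3 lowest at 0.559-fold.

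The shortest members were mostly higher in replicate 2. Of 22 members whose most abundant annotated transcript is under 600 bases, 18 were higher and 4 lower, with a median log2 ratio of 0.15. Of 27 members of 600 to under 1000 bases, 12 were higher and 15 lower. Of 8 members of 1500 bases or more, 4 were higher and 4 lower, with a median of 0.08. Rps24 was 1 of these 8, and higher, by the 1613 bases of Rps24-210. Only 3 and 2 of its reads were on annotated transcripts, and its most abundant models had 548 and 507 bases. All lengths here are those of models, and the lengths of the reads were not used. Rps15a (5179 bases) and Rps20 (3706) also stand in this class by the length of an annotated transcript. Among other coding genes under 600 bases, 46 of 62 were higher, with a median of 0.23, and of those of 600 to under 1000 bases, 142 were higher and 77 lower. From 1000 to under 1500 bases, 7 members were higher and 8 lower, and 130 other coding genes were higher and 192 lower. The medians there were -0.03 and -0.06. At 1500 bases or more, 1164 other coding genes were higher and 1038 lower, with a median of 0.02. Over the 72 members with at least 100 reads, length and log2 ratio correlated with a Spearman rho of -0.28. Over 2805 other coding genes the rho was 0.20. The 2 values cover unlike lengths, with a median of 810.5 bases in members and 2515 in the others. They therefore do not show that the 2 groups differ at a given length. These genes share the 2 libraries, and the part of transcript length in the calls was not tested.

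The other genes of the pathway came from 4 lists. Ribosomal proteins outside the name rule had none called of 3, with a median log2 ratio of -0.31. Of these, Fau had 110 and 89 reads and Rack1 had 69 and 49. Of 20 other genes whose messages are known to begin with the pyrimidine run, most of them of translation, 3 were lower in replicate 2 and none higher, against 3.56% lower and 4.25% higher over all genes tested, with a median log2 ratio of -0.26. These were the elongation factors Eef1a1 (95 and 42 reads, 0.439-fold) and Eef2 (628 and 454, 0.717-fold), and Vim (82 and 47, 0.569-fold), an intermediate filament gene of mesenchymal cells. Eef1a2, the form of elongation factor 1A known from muscle, had 325 and 370 reads, 1.13-fold, and was not called. Of 23 ribosome biogenesis genes tested of 24, 2 were lower and none higher, with a median of -0.20, beside the same shares over all genes. These were the nucleolar proteins Ncl (127 and 74, 0.578-fold) and Nop56 (46 and 17, 0.367-fold). None of 9 regulators, such as Mtor, Larp1 and Myc, was called, with a median of -0.14. Over all genes tested 7.82% were called. In lists of 9 and 3 genes, having none called therefore does not show that levels were equal. The members' own median of 0.03 was higher than that of each list, and the difference was not tested.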

How the data were processed

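Long-read RNA sequencing of gastrocnemius was analysed in 2 libraries. The deposited tables hold raw counts of long reads per transcript model, not normalized, beside the model's length in bases. Exon positions on mm10 come from the deposited annotation, made with TALON from GENCODE M21, per the file headers. For the aligner and the read filters, nothing is given in the sources used here. Library totals were 1349298 and 1359923 reads.

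Annotated models were matched between libraries by identifier and the others by gene and introns; single-exon models outside the annotation were pooled for each gene. A gene's reads are the sum over its models. Tests covered genes with a sum of 10 reads or more, the dominant transcript where each library had 20 reads or more of the gene, and internal exons with 20 informative reads or more per library and an inclusion between 5% and 95% over both. All were done by two-sided Fisher's exact tests (SciPy 1.17.1), Benjamini-Hochberg adjusted over all of them. Shares carry 95% Wilson intervals, and folds the interval of the read split. A limit from a count of 0 is 3 reads of the total. An intron counted as kept in reads with an exon that spans it. Pseudogene copies were the best match among coding transcripts (BLAST+ 2.17.0, at least 90% identity over at least 50%). Coding sequences were aligned globally with Biopython 1.88. Scaling and spread alternatives used edgeR 4.0.16 and DESeq2 1.42.0. Tests were checked on simulated counts with known changes. The p-values measure the difference between 2 libraries and not between animals.

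Members and lists were chosen with earlier results of these data known. Named are the paralogue pairs, Rps24, the 6 highest and 6 lowest members, members with no read, called members and the 3 just outside the threshold, the 5 lowest and 5 highest annotated shares, the 5 most abundant unannotated spliced models and the stalk, 5S and decoding proteins. Rps4l, which the pairs include, was not among the genes under the rule. Some genes that the rule names are not reported here by name or plotted, though counts over all members include them. Alternatives with pseudogene copies by similarity or without slow fibre markers, the length classes, the intron counts and the wider start window were chosen after seeing the data.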

Additional observations from a re-analysis of the deposited data

How the results depend on the processing

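Of 43 alternatives to the values that answer a comparison, 30 stayed within their margin and 13 did not. Of 140 further ones on single genes or pairs, 122 did, 11 lost a call, 3 gained one and 4 moved. Both counts of those that stayed include shares with 1 replicate left out. With 2 libraries such a share always lies within the SD of the mean, so it could not move and says nothing about stability. The 30 also include settings of the exon test. These had 0 or 1 member exon to test, so their 0 calls say little about stability. The called members numbered 7, and 7 to 9 under every other scaling, filter or read choice. Under edgeR's exact test at a dispersion of 0.01, 1 was called. Over all genes the share called was 7.82%, between 3.99% (no filter) and 9.83% (at least 20 reads summed) under the others, and 1.85% under edgeR's test. The called genes were not always the same. On annotated transcripts alone 8 members were called, 5 of them among the 7. Rpl39 and Rplp0 were lost there, and Rpl34, Rpl41 and Rps28 were gained. Dominant transcripts called among members numbered 5 of 76 tested, against 83 of 4881 over all genes. The same 5 were called of 80 tested at a minimum of 10 reads per library, and of 68 at 50. Over all genes the shares called were then 1.24% and 2.97%. With spliced models alone the called dominant transcripts numbered 1 of 74, against 36 of 4536. Rpl34 and Rpl13a kept differences of 17.8 and -11.5 percentage points there. The summed share of member reads was 1.04%. It was 1.37% on annotated transcripts, 1.14% on spliced models, 1.54% without the 10 genes with the most reads, 1.14% and 1.24% with pseudogene reads added by name and by similarity, and 1.08% with the ribosomal proteins outside the name rule. The mean Rpl3l share of 84.9% was 79.0% on annotated transcripts and 77.98% and 77.8% with pseudogene reads added by name and by similarity. On annotated transcripts alone both Rps24 exon forms were at 0%, from 3 and 1 informative reads. No paired analysis was possible because there is 1 group. With 1 library per animal, depth limits genes under about 10 reads, and the spread between animals rests on 2 values.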
